A study of Mus musculus with 4 samples.

Results

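The genes described here are 6 immune receptor genes of the mouse: Fcgr1, Fcgr3 and Fcgr4, which encode the activating IgG receptors Fc gamma RI, RIII and RIV; Fcgr2b, which encodes the inhibitory IgG receptor; Fcer1g, the signalling chain that the activating receptors need; and Pirb, the inhibitory paired immunoglobulin-like receptor. They are 6 of the 32285 genes in the deposited tables. They were chosen by name with earlier results of these same UMI counts in view, so the values below describe them and carry no test. The study dissociated brains of male mice that carried human APOE3 or human APOE4 in place of mouse Apoe, prepared cell suspensions enriched for glia, and counted unique molecular identifiers (UMIs, one per captured RNA molecule) at transcript 3′ ends in single cells. Mice of each genotype had received NaCl or 5 mg/kg lipopolysaccharide (LPS, a component of the outer membrane of Gram-negative bacteria) by intraperitoneal injection, and LPS brains were taken after 24 h. This gave 4 groups, APOE3 with NaCl or LPS and APOE4 with NaCl or LPS, of 1 library each; values listed in fours below keep that order. Each library pooled the brains of 3 mice, cells could not be assigned to a mouse, no group carried mouse Apoe, and ages were not given in the sources used here.

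With 1 library per group there is no replicate, so no difference below could be tested. The bracketed ranges are exact 95% intervals that cover counting error only, not the spread between mice or preparations. The files held 15432, 16078, 14122 and 29361 cell barcodes in that order, with 73288965 to 114378032 UMIs per library. The APOE4 LPS library stood apart in depth and makeup, and every APOE4 LPS value below rests on it, whereas comparisons within APOE3 do not use its UMI counts. All 4 libraries were clustered together, however, so the class of an APOE3 cell can depend on the APOE4 LPS cells. Its median was 1292 UMIs per barcode against 3969 to 5640.5 in the others, 61.9% of its barcodes passed the filters against 92.6% to 93.7%, the doublet caller marked 0 of 18182 cells in it and had not worked there, and 52.6% of its cells fell into clusters without a cell type name against 1.81% to 5.88%. Pairs of libraries shared 61 to 140 barcodes, under 1% of either. Clusters were named from fixed marker genes, and although the labels describe the cells as non-neuronal, 222 to 425 cells per library carried neuronal markers.

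Fc gamma receptors bind the constant part of IgG antibodies on immune complexes and opsonised particles. The activating receptors signal through an immunoreceptor tyrosine-based activation motif (ITAM) in the Fc receptor gamma chain encoded by Fcer1g, whereas the inhibitory receptor carries an inhibitory motif (ITIM) in its own tail and restrains them. Pirb also carries ITIMs, binds major histocompatibility complex class I molecules and myelin inhibitor proteins, and is known in brain both on myeloid cells and on neurons. In the healthy brain these receptors are best known on microglia and on the macrophages of the brain borders, and both LPS and interferon gamma are known to change their balance on macrophages.

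Fcgr2b, Fcgr4, Fcgr3 and Fcer1g lie in this order on mouse chromosome 1 within 276 kb (GRCm38: Fcgr2b 170958617-170976547, Fcgr4 171018920-171029761, Fcgr3 171051174-171064935, Fcer1g 171229572-171234365). Fcgr1 lies alone on chromosome 3 (96282909-96293969) and Pirb on chromosome 7 (3711409-3720391). Its close relatives Pira2 (3836812-3845051) and Lilra6 (3908280-3915503) lie in the same region, so reads of Pirb and of its relatives may not have been separated fully by the counting. The extracellular parts of Fcgr2b and Fcgr3 are also closely related in sequence, and the same limit holds for them. Pirb and the replaced Apoe locus are on the same chromosome, 16.0 Mb apart.

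The 3 promoters below belong to the members whose levels differed most between libraries in microglia (Fcgr4 and Pirb) and to Fcgr1, and they are shown because they held a match to the motifs searched. Each sequence comes from RefSeq (GRCm38.p6), reads 5′ to 3′ on the strand of the gene and ends at the base before the annotated gene. Capitals mark matches, on either strand, to a STAT motif (GAS, TTCNNNGAA), an interferon regulatory factor motif (ISRE, GAAA and GAAA with any NN between them) or a PU.1 motif (AGGAAGT).
Fcgr1, chr3:96293970-96294219 (- strand): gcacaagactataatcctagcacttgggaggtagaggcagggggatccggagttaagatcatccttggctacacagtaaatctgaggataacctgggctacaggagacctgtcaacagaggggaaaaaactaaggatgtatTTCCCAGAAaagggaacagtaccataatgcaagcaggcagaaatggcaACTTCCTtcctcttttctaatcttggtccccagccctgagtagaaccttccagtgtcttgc
Fcgr4, chr1:171018676-171018919 (+ strand): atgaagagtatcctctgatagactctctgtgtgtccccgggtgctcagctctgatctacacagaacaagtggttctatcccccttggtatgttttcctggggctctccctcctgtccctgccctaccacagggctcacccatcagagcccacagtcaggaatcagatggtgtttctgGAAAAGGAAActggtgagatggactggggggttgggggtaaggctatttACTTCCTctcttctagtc
Pirb, chr7:3720392-3720632 (- strand): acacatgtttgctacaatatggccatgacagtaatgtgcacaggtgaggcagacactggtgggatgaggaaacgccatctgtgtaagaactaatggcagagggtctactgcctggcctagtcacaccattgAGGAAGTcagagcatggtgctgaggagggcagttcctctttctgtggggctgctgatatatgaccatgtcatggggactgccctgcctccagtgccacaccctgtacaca
Distances are counted to the RefSeq start. The Fcgr1 window held a GAS match starting 109 bases and a PU.1 match starting 61 bases before it. The Fcgr4 window held an ISRE match 73 bases and a PU.1 match 24 bases before it, and the Pirb window a PU.1 match 119 bases before it. None of the 3 motifs was found in the windows of Fcer1g, Fcgr2b and Fcgr3. The windows of Fcgr2b and Fcgr3 overlap the annotated genes, and these promoters are not shown. Over the 27025 promoters of the same table, 7.18% held the GAS motif, 3.04% the ISRE motif and 7.8% the PU.1 motif in 250 bases. A match is a string of letters and not a measured binding site.

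In NaCl brains, each of the 6 genes was highest in microglia or in border-associated macrophages, and every other class of at least 50 cells in both NaCl libraries was far below. Levels are given as CPM, the UMIs of the gene per 1000000 UMIs of the class. Since 3′ counting yields 1 UMI per captured molecule, no scaling by gene length applies. Averaged over the 2 NaCl libraries, Fcgr1 stood at 173 CPM in microglia and 121 CPM in border-associated macrophages, and Fcgr3 at 525 and 333 CPM. The order was the opposite for the other members. Fcgr2b was at 517 CPM in border-associated macrophages and 178 CPM in microglia, Fcgr4 at 29.0 and 17.6 CPM, Fcer1g at 2267 and 1969 CPM, and Pirb at 138 and 29.2 CPM. Fcgr2b and Pirb, the 2 genes for inhibitory receptors, therefore had the widest margin in favour of the border macrophages. Fcer1g was at 453 CPM in the T or NK cells of APOE3 NaCl (56 cells) and at 469 CPM in those of APOE3 LPS (65 cells), and natural killer cells are known to use this chain. Astrocytes, oligodendrocytes and endothelial cells of the NaCl libraries held 0 to 3.30 CPM of the 5 receptor genes.

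**Figure D1:**
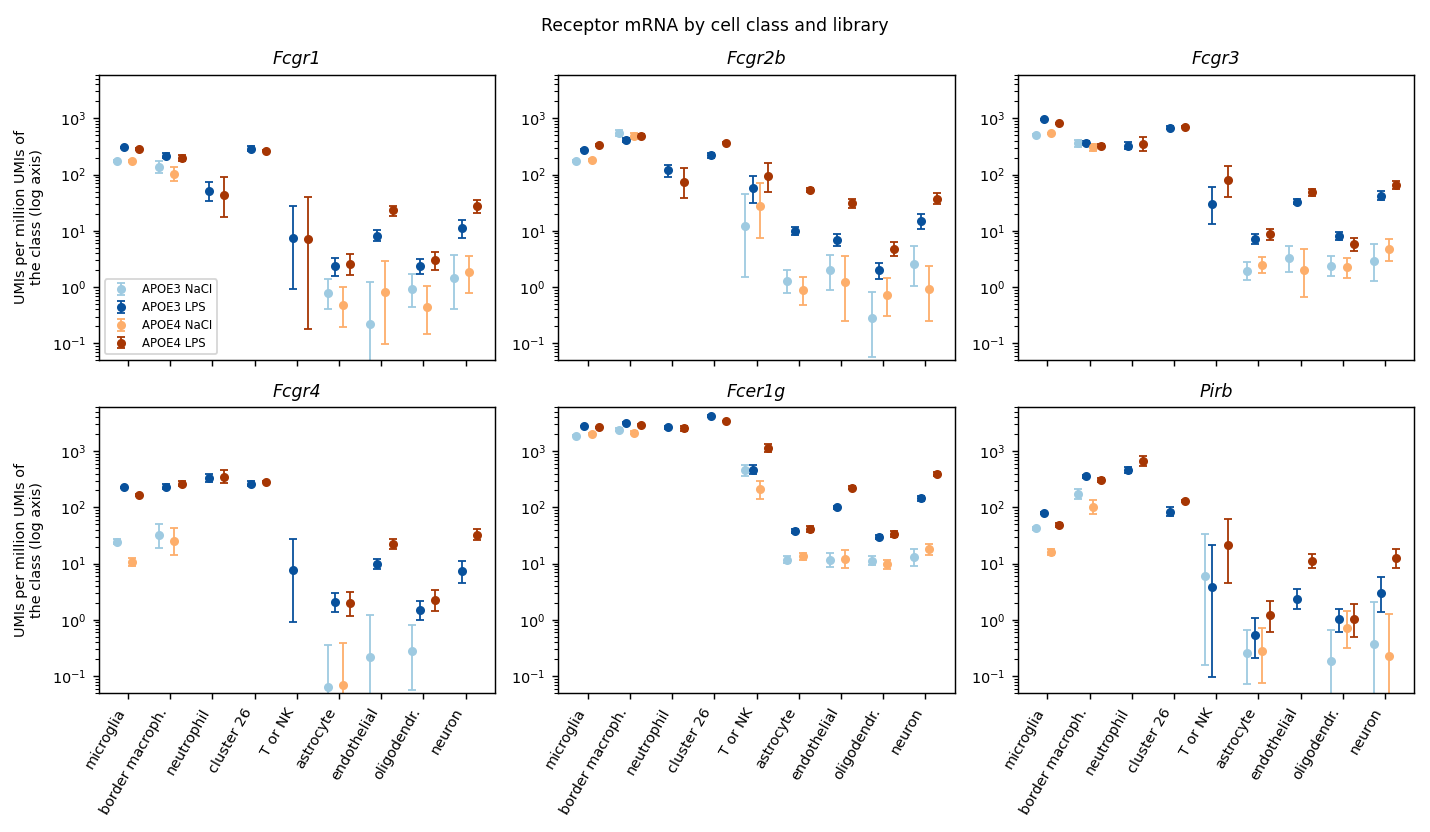
Level of each of the 6 genes (CPM, log axis) by cell class, with 1 point for each of the 4 libraries and bars for the exact Poisson 95% interval; points with 0 UMIs are not drawn. Microglia and border-associated macrophages sit highest in the NaCl libraries, and Fcgr2b in APOE4 LPS astrocytes stands at 53.6 CPM against 0.901 to 9.91 CPM in the other libraries.

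LPS microglia carried more of all 6 transcripts in both genotypes, and Fcgr4 stood apart by size. Fcgr4, the receptor best known for binding the IgG subclasses that act most strongly in mice, was at 24.4 CPM in APOE3 NaCl microglia, 227 CPM in APOE3 LPS, 10.9 CPM in APOE4 NaCl and 164 CPM in APOE4 LPS. Both LPS libraries were therefore far above both NaCl libraries. It was 9.29-fold (8.36 to 10.4) higher with LPS in APOE3 and 15.1-fold (12.8 to 17.99) higher in APOE4. The share of microglia with at least 1 Fcgr4 UMI was 8.85%, 71.2%, 4.68% and 50.9% in the same order. After every cell was thinned to 1000 UMIs these shares were 2.93%, 19.4%, 0.991% and 14.6%. In oligodendrocytes, which are not known to make this receptor, the unthinned share was 0.0893%, 0.945%, 0% (0 of 2235 cells, which allows up to 0.165%) and 1.03%, with median depths of 4423 to 6036.5 UMIs against 4202 to 7289 in microglia.

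Pirb was at 42.2 and 79.2 CPM in APOE3 microglia (NaCl, LPS) and at 16.1 and 48.1 CPM in APOE4 microglia. Within each genotype the LPS library was higher, by 1.88-fold (1.72 to 2.05) in APOE3 and 2.99-fold (2.55 to 3.51) in APOE4. This order of the genotypes turned within each microglial cluster, as given below. The APOE4 LPS value was close to that of APOE3 without LPS.

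The ratios of the other 4 genes lay between 1.30 and 1.87. Fcgr1, the high-affinity IgG receptor, was at 173, 307, 172 and 281 CPM, so that it was 1.77-fold (1.69 to 1.85) and 1.64-fold (1.55 to 1.73) higher with LPS in APOE3 and APOE4. Fcgr3, the low-affinity activating receptor, was at 513, 959, 538 and 813 CPM, or 1.87-fold (1.82 to 1.92) and 1.51-fold (1.47 to 1.56) higher. Both NaCl libraries lay close together for these 2 genes, below both LPS libraries. Fcgr2b was at 176, 278, 180 and 335 CPM, or 1.58-fold (1.51 to 1.65) and 1.86-fold (1.77 to 1.9604) higher. Fcer1g, the most abundant of the 6, was at 1892, 2830, 2047 and 2659 CPM, or 1.496-fold (1.48 to 1.52) and 1.30-fold (1.28 to 1.32) higher. The inhibitory receptor was thus the only one of these 4 with the larger ratio in APOE4.

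A difference of at least 2-fold, in a gene with at least 10 UMIs in 1 of the 2 libraries, served as the mark throughout. In APOE3 microglia 1 of the 6 members (Fcgr4) was at least 2-fold higher with LPS, beside 5.96% of all genes measured. In APOE4 microglia 2 of 6 (Fcgr4 and Pirb) were, beside 7.82% of genes. No member was at least 2-fold lower, beside 9.52% and 9.57% of genes. With a mark of 1.5-fold, 5 of 6 members passed in each genotype, beside 11.3% of genes in APOE3 and 15% in APOE4. The median log2 ratio of the members was 0.86 in APOE3 and 0.80 in APOE4, and that of all genes measured was -0.15 and -0.09. The median gene of the expressed set had a log2 ratio of -0.19 in APOE3 microglia, and with ratios scaled to it 4 members passed the 2-fold mark, beside 7.61% of genes.

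**Figure D2:**
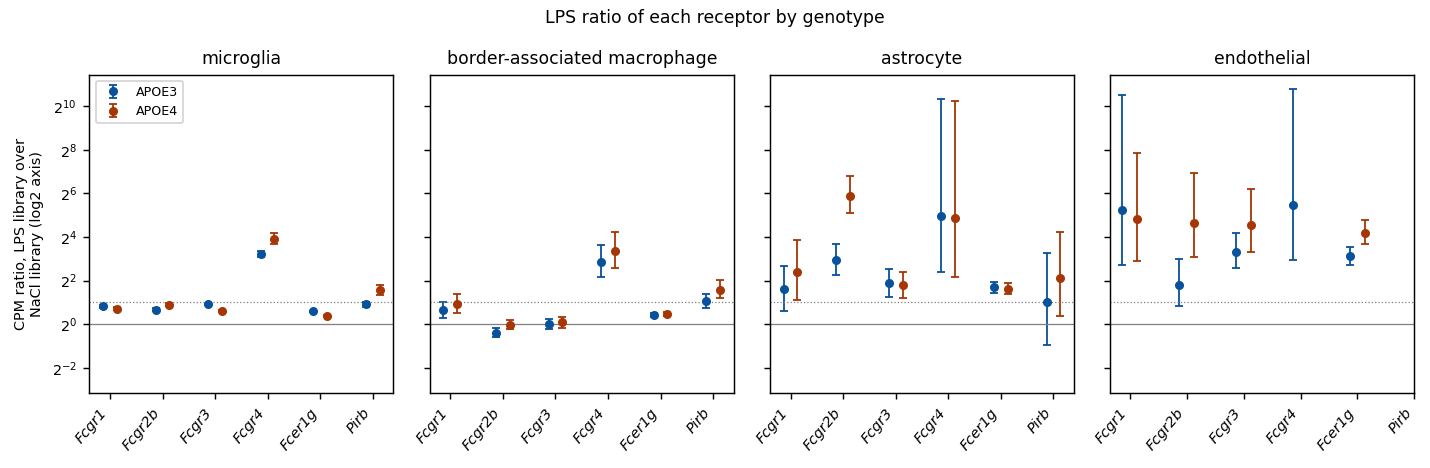
LPS to NaCl ratio of each gene (log axis) in microglia, border-associated macrophages, astrocytes and endothelial cells, in APOE3 and APOE4, with exact 95% counting intervals and no replicates; genes with 0 NaCl UMIs (endothelial Pirb, and Fcgr4 in APOE4) have no point, and the dotted line marks 2-fold. In microglia Fcgr4 stands at 9.29 and 15.1, and the other 5 genes lie between 1.30 and 2.99.

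Different clusters held the microglia of the 2 treatments, which bears on each of these ratios. Clusters 3 and 7 held 3010 of 3209 APOE3 NaCl and 2832 of 2925 APOE4 NaCl microglia, whereas clusters 4 and 13 held 4213 of 4275 APOE3 LPS and 1392 of 1511 APOE4 LPS microglia. None of the 6 genes or of the related genes below was used for clustering. Within single clusters Fcgr4 was higher with LPS in each of the 4 clusters and both genotypes. In cluster 3 it was 10.2-fold (6.73 to 15.2) higher in APOE3 and 10.1-fold (6.42 to 15.7) in APOE4, from 30 and 55 LPS cells. In cluster 13 it was 3.07-fold (2.39 to 4.002) and 4.19-fold (2.61 to 7.22) higher, from 126 and 58 NaCl cells. The few NaCl cells that clustered with the LPS majority already held 70.3 CPM (APOE3) and 41.5 CPM (APOE4) of Fcgr4 in cluster 13, above the 20.4 and 10.6 CPM of cluster 3. Pirb was past 2-fold higher with LPS within each cluster in APOE3, with log2 ratios of 1.42 (cluster 3), 1.82 (cluster 4), 1.18 (cluster 7) and 1.52 (cluster 13). In APOE4 its log2 ratios were 0.68, 0.53, 0.62 and 1.25 in the same order, past 2-fold in cluster 13 alone. Each of these Pirb ratios rests on 5 to 23 UMIs in 1 of its 2 libraries.

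**Figure D3:**
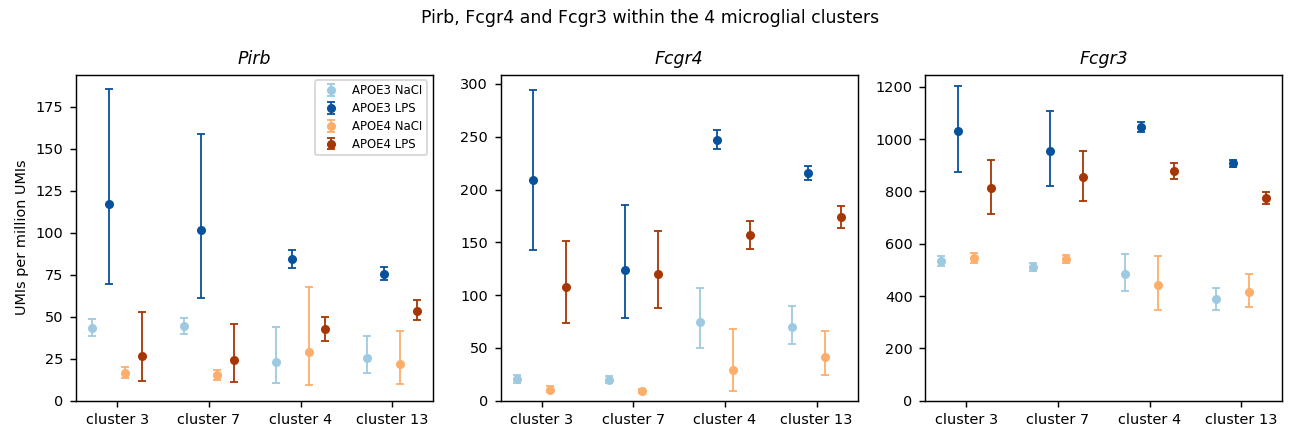
Pirb, Fcgr4 and Fcgr3 levels (CPM) in each of the 4 microglial clusters and each library, with exact Poisson 95% intervals. In clusters 3 and 7 Pirb is at 43.4 and 44.3 CPM in APOE3 NaCl and at 16.4 and 15.2 CPM in APOE4 NaCl.

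Between the genotypes without LPS, 2 of the 6 genes differed by more than 2-fold in microglia, both lower in APOE4. Pirb was 2.62-fold (2.25 to 3.07) lower and Fcgr4 2.25-fold (1.86 to 2.74) lower, from 224 against 624 and 151 against 361 UMIs. The other 4 lay between 0.992 and 1.08 times the APOE3 level. The share of all genes at least 2-fold lower in this comparison was 2.05%. With 10 added to each CPM value before the ratio, neither difference passed 2-fold, beside 0.0419% of genes. The Pirb difference was of similar size in the 2 clusters that held nearly all these cells, 2.65-fold (2.10 to 3.36) lower in cluster 3 and 2.91-fold (2.33 to 3.64) lower in cluster 7. In the 199 APOE3 and 93 APOE4 NaCl cells of clusters 4 and 13, the log2 difference of Pirb was -0.05. The summed level of 10 microglial genes, among them C1qa, Csf1r, Cx3cr1, P2ry12, Tyrobp and Trem2, was 37159 CPM in APOE3 NaCl and 39429 CPM in APOE4 NaCl microglia. The summed level of 13 genes of other myeloid cells was 16.98 and 17.54 CPM.

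With LPS, no member was at least 2-fold lower in APOE4 than in APOE3 microglia, beside 2.84% of all genes. Pirb was 0.608 times (0.551 to 0.669) and Fcgr4 0.724 times (0.687 to 0.764) the APOE3 level. Fcgr2b was the only member above it, at 1.20 times. The Pirb value rests on which cells count as microglia. When cells of unnamed cluster 26, described below, were joined to microglia, Pirb was higher in APOE4 LPS than in APOE3 LPS by 0.22 on the log2 scale, and it was higher by 0.03 with doublets kept in every library. These ratios share their libraries with those above: on the log2 scale the LPS ratio was larger in APOE4 by 0.64 for Fcgr4, 0.63 for Pirb and 0.23 for Fcgr2b, and the difference was -0.11 for Fcgr1, -0.20 for Fcer1g and -0.31 for Fcgr3. The Pirb difference turned direction within every microglial cluster, at -0.74 in cluster 3, -1.29 in cluster 4, -0.56 in cluster 7 and -0.27 in cluster 13, each with a counting interval that included 0. In cluster 3 Fcgr4 (-0.07) and Fcgr2b (-0.18) turned as well, and Fcgr1 turned to 0.37 in cluster 4 and 0.01 in cluster 13, while Fcer1g and Fcgr3 stayed below 0 in all 4. For Fcgr4 and Pirb the lower NaCl level in APOE4 enters both values.

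Border-associated macrophages, the resident macrophages of the meninges, perivascular spaces and choroid plexus, numbered 143 and 251 cells in APOE3 (NaCl, LPS) and 126 and 246 in APOE4. Fcgr4 was at 32.2, 233, 25.8 and 264 CPM in them, 7.22-fold (4.45 to 12.5) higher with LPS in APOE3 and 10.3-fold (6.05 to 18.9) in APOE4. Pirb was at 173, 355, 103 and 309 CPM, 2.06-fold (1.65 to 2.59) and 3.00-fold (2.27 to 4.02) higher. Both genes had ratios near those of microglia, from a Pirb level several times theirs. Fcgr2b was at 542, 414, 491 and 481 CPM, 0.763 and 0.979 times its NaCl level. The median gene had a log2 ratio of -0.14 in APOE3 and -0.18 in APOE4 in this class, and scaled to it the APOE4 ratio of Fcgr2b lies above 1. Fcgr3 was at 360, 360, 305 and 322 CPM, Fcgr1 at 138, 216, 103 and 196 CPM, and Fcer1g at 2395, 3223, 2140 and 2965 CPM. Of the 6 members 2 were at least 2-fold higher with LPS in APOE3, beside 11.5% of genes, and 2 in APOE4, beside 13.8%. The cluster's makeup differed between libraries as well. Ly6c2 and Chil3, which are known in monocytes, were at 7.59 and 11.4 CPM in APOE3 NaCl and at 297 and 230 CPM in APOE3 LPS, Ly6c2 was already at 263 CPM in APOE4 NaCl, and the part of such cells in these values was not tested.

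Neutrophils were too few without LPS to compare (4 and 13 cells). In the 114 APOE3 LPS and 39 APOE4 LPS neutrophils, Pirb stood at 471 CPM (416 to 531) and 668 CPM (548 to 806), the highest levels of this gene in any class with at least 20 cells in a library. Fcgr4 and Fcgr3 were at similar levels, 335 and 328 CPM in APOE3 LPS and 353 CPM for both genes in APOE4 LPS. Fcgr2b was lower, at 118 and 74.2 CPM, and Fcgr1 at 50.1 and 43.3 CPM.

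Unnamed cluster 26 was a myeloid cluster of 179 APOE3 LPS and 1326 APOE4 LPS cells, led by Ccl5, Marco, Saa3 and Msr1, to which the fixed markers gave no name. Fcgr4 stood at 262 and 288 CPM in it and Fcer1g at 4204 and 3425 CPM, both above LPS microglia of the same genotype. Fcgr1 at 290 and 267 CPM and Fcgr3 at 678 and 708 CPM were below them. Fcgr2b was at 219 CPM in APOE3 and 371 CPM in APOE4, 1.69-fold (1.51 to 1.89) higher. Pirb was at 84.5 and 131 CPM, against 79.2 and 48.1 CPM in LPS microglia. The classes that held the transcripts differed in the APOE4 LPS library. Microglia held 84.0% to 95.8% of the UMIs of Fcgr1, Fcgr2b, Fcgr3, Fcgr4, Fcer1g and Pirb in named and unnamed cells of the NaCl libraries, except for 70.9% of Pirb in APOE4 NaCl. In APOE3 LPS they held 69.0% (Pirb) to 90.4% (Fcgr3). In APOE4 LPS they held 12.6% (Pirb) to 31.6% (Fcgr3), while cluster 26 held 32.4% to 40.9% and unnamed cluster 24, with 6448 cells of that library led by Saa3 and Ccl5, 16.1% to 19.7%. Cluster 24 was shallow, with a median of 1459.5 UMIs per cell. Unnamed cluster 29, led by haemoglobin genes (1381 APOE4 LPS cells), held similar levels in that library. Fcgr3 was at 372 CPM in both clusters, and Fcgr4 at 119 CPM in cluster 24 and 115 CPM in cluster 29. Whether this RNA came from the cells themselves was not tested.

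The balance of activating to inhibitory transcripts was compared as UMIs of Fcgr1, Fcgr3 and Fcgr4 together per UMI of Fcgr2b, a ratio that does not depend on how a library is scaled. In microglia it was 4.04 (3.87 to 4.22) in APOE3 NaCl and 4.01 (3.84 to 4.19) in APOE4 NaCl, against 5.37 (5.25 to 5.49) in APOE3 LPS and 3.76 (3.62 to 3.91) in APOE4 LPS. The intervals of the 2 NaCl libraries overlapped, and with LPS the ratio was higher in APOE3 and slightly lower in APOE4. In the few LPS cells of clusters 3 and 7 alone the APOE3 LPS ratio was 3.98, not above NaCl, and the APOE4 LPS ratio was 3.14. In clusters 4 and 13 alone, which held most LPS microglia, the ratio was higher with LPS in APOE3, at 5.39 against 3.14. In APOE4 it was 3.81 with LPS against 3.52 with NaCl. The APOE4 NaCl value rests on 93 cells, with 31 Fcgr2b UMIs in cluster 4 and 77 in cluster 13. That difference is small for such counts, so no direction is read from it. Fcgr3 made up most of it: Fcgr3 alone gave 2.92 and 2.99 UMIs per Fcgr2b UMI with NaCl and 3.45 and 2.43 with LPS, and Fcgr4 alone 0.139 and 0.0604 with NaCl and 0.815 and 0.491 with LPS. Cluster 26 had the same order between genotypes, 5.61 (4.99 to 6.31) in APOE3 LPS and 3.41 (3.29 to 3.52) in APOE4 LPS. Border-associated macrophages had the lowest ratios among myeloid cells, 0.979 (0.827 to 1.16) and 0.884 (0.739 to 1.06) with NaCl and 1.955 (1.79 to 2.14) and 1.63 (1.49 to 1.78) with LPS. In them the ratio was higher with LPS in both genotypes. UMI ratios of different genes also depend on how well each 3′ end is captured, so they compare libraries and classes rather than receptor numbers on cells.

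**Figure D4:**
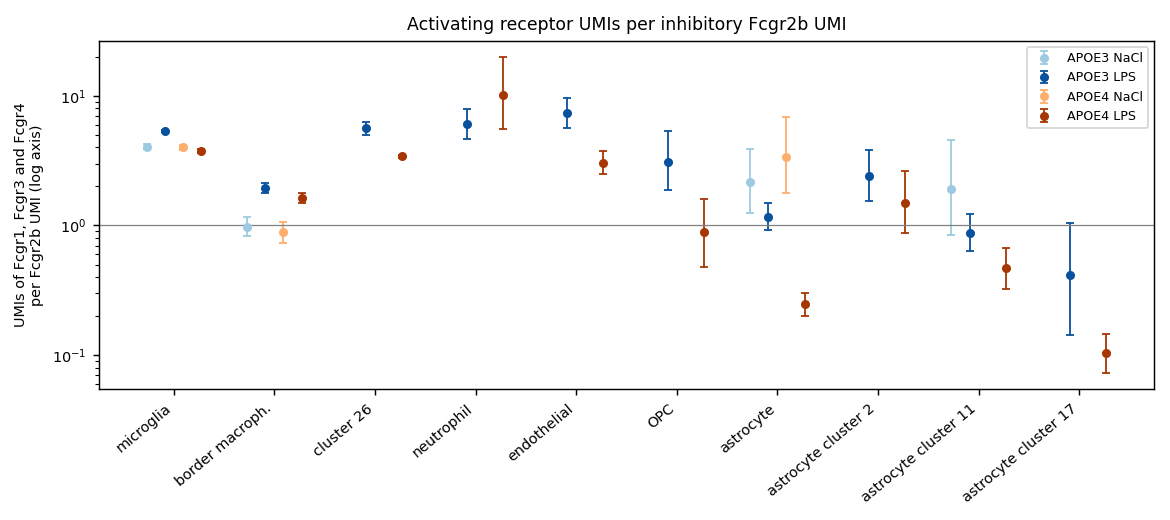
UMIs of Fcgr1, Fcgr3 and Fcgr4 together per Fcgr2b UMI (log axis) by cell class and library, with exact 95% intervals; only points with at least 10 Fcgr2b UMIs are drawn. Microglia lie between 3.76 and 5.37, and APOE4 LPS astrocytes lie at 0.246.

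Fcgr2b was also the member that stood out in astrocytes, the cells named in the title of the study. The 4238, 3248, 3663 and 2315 astrocytes of the 4 libraries held 20, 130, 13 and 483 Fcgr2b UMIs, or 1.31, 9.91, 0.901 and 53.6 CPM. The APOE4 LPS library was well above the other 3, and APOE3 LPS was above both NaCl libraries. The ratio to NaCl was 7.58-fold (4.71 to 12.8) in APOE3 and 59.5-fold (34.4 to 113) in APOE4, and APOE4 LPS was 5.41-fold (4.45 to 6.61) above APOE3 LPS. The log2 LPS ratio was thus larger in APOE4 by 2.60, or by 2.97 (1.93 to 4.02) without an offset added to the CPM. The share of astrocytes with a UMI was 0.425%, 3.26%, 0.355% and 11.5%, and after thinning to 1000 UMIs per cell 0.118%, 1.11%, 0.109% and 4.49%. In oligodendrocytes the unthinned share was 0.134%, 0.981%, 0.358% and 2.19%.

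The other members were also higher with LPS in astrocytes, from lower levels than in myeloid cells. Fcgr3 was at 1.9602, 7.16, 2.49 and 8.65 CPM, Fcer1g at 11.8, 38.2, 13.4 and 41.4 CPM, and Fcgr1 at 0.784, 2.36, 0.485 and 2.55 CPM. Fcgr4 had 1, 27, 1 and 18 UMIs and Pirb 4, 7, 4 and 11 UMIs. Of the 5 members with enough counts in APOE3, 5 were at least 2-fold higher with LPS, beside 3.5% of genes. In APOE4 6 of 6 were, beside 6.34%. Fcgr4 in APOE3, and Fcgr1 (7 NaCl UMIs), Fcgr4 and Pirb in APOE4, reached 10 UMIs in the LPS library alone. That favours their being counted as higher, and the same rule applied to all genes. Between the 2 LPS libraries 2 of 6 (Fcgr2b, and Pirb with 11 against 7 UMIs) were at least 2-fold higher in APOE4, beside 4.1% of genes. The 10 microglial genes listed above summed to 205, 402, 218 and 388 CPM in these astrocytes, all 10 being detected in each library. The 13 genes of other myeloid cells summed to 10.5, 22.6, 7.14 and 22.9 CPM, with Ly6g at 0 in 4 of 4 libraries. Both sums were thus about as high in APOE3 LPS as in APOE4 LPS.

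Fcgr2b differed from those genes most clearly in APOE4 LPS. Per 100 UMIs of the 10 microglial genes, astrocytes held 0.639, 2.46, 0.412 and 13.8 (12.5 to 15.2) Fcgr2b UMIs, whereas microglia of the same libraries held 0.698 in APOE3 LPS and 0.956 in APOE4 LPS. Border-associated macrophages of APOE3 LPS and APOE4 LPS held 414 and 481 CPM of Fcgr2b beside 17575 and 11538 CPM of the microglial genes. That proportion was above the microglial one, near the astrocyte one in APOE3 LPS and below the astrocyte one in APOE4 LPS. Unnamed clusters 26 and 24, which held many of the receptor UMIs of APOE4 LPS, had Fcgr2b at 371 and 171 CPM there. They are not part of this comparison. Among the APOE4 LPS astrocytes with none of these microglial UMIs (1023 cells), Fcgr2b was at 53.7 CPM (46.4 to 61.7) and 9.58% of cells had a UMI, so the level was as high as in all astrocytes of that library. The same cells of the other libraries were at 1.10 (APOE3 NaCl), 9.34 (APOE3 LPS) and 0.727 CPM (APOE4 NaCl). Oligodendrocytes of APOE4 LPS chosen the same way were at 2.35 CPM (1.01 to 4.62). Over all 2315 APOE4 LPS astrocytes, with or without microglial UMIs, 102 held at least 2 Fcgr2b UMIs, with up to 9 in a cell. Of the 266 with any Fcgr2b UMI, 98 held no microglial UMI. Among the same APOE4 LPS astrocytes without microglial UMIs, Fcgr3 was at 3.01 CPM, Fcgr1 at 1.37 CPM and Fcer1g at 16.2 CPM. Doublets were not removed from this library, and cells without these UMIs can still hold RNA of other cells. The source of the Fcgr2b RNA in astrocytes was not tested.

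Within astrocytes, the level depended on the cluster. Cluster 17 held 796 of the 2315 APOE4 LPS astrocytes and 363 of their 483 Fcgr2b UMIs, at 118 CPM, and 23.4% of its cells had a UMI. Clusters 11 and 2 of the same library were at 29.1 and 9.13 CPM. In APOE3 LPS the same order held, with 38.5 CPM in cluster 17 (133 cells, 17 UMIs), 12.4 CPM in cluster 11 and 5.00 CPM in cluster 2. Over all cells of each of these clusters APOE4 LPS was above APOE3 LPS, by 3.05-fold (1.88 to 5.30) in cluster 17, 2.34-fold (1.73 to 3.18) in cluster 11 and 1.83-fold (1.02 to 3.23) in cluster 2. Among cells without microglial UMIs cluster 2 had the opposite order, 4.11 CPM (1.12 to 10.5) in APOE4 LPS and 5.64 CPM (3.00 to 9.64) in APOE3 LPS, with overlapping intervals. Without cluster 17, a choice made after the data were seen, the log2 difference between the LPS libraries was 1.10 in place of 2.29. Astrocytes also had the lowest activating to inhibitory ratio of the classes with at least 50 Fcgr2b UMIs, 0.246 (0.200 to 0.302) in APOE4 LPS against 1.17 (0.919 to 1.49) in APOE3 LPS, and cluster 17 of APOE4 LPS was at 0.105 (0.0729 to 0.146).

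**Figure D5:**
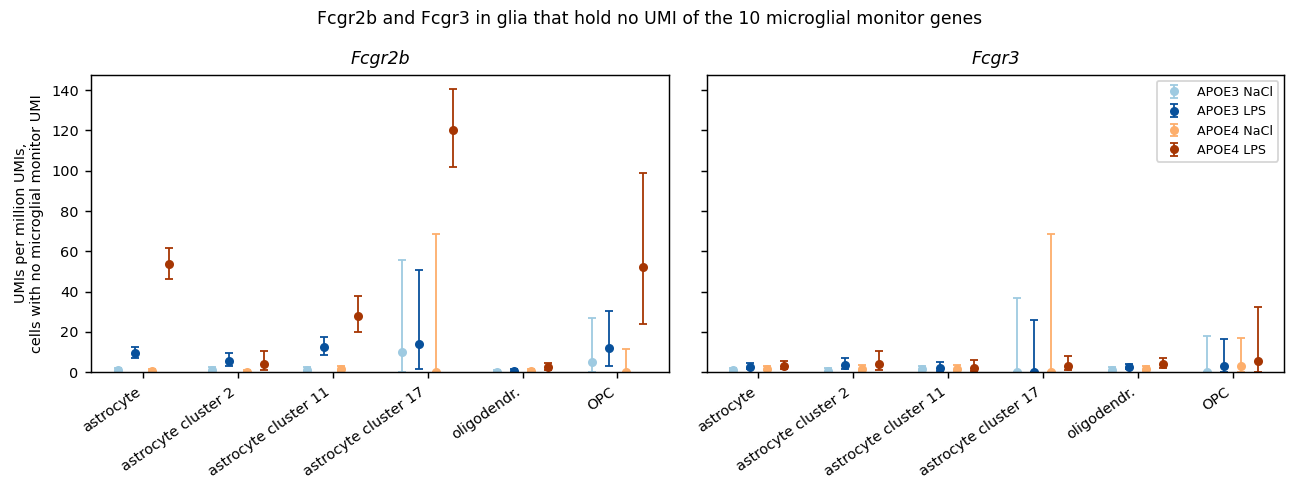
Fcgr2b and Fcgr3 levels (CPM) for the 4 libraries in astrocytes, the 3 astrocyte clusters, oligodendrocytes and oligodendrocyte precursors (OPC), only over cells without any UMI of the 10 microglial genes, with exact Poisson 95% intervals. For Fcgr2b, APOE4 LPS stands at 53.7 CPM in astrocytes, 120.1 CPM in cluster 17 and 2.35 CPM in oligodendrocytes, and Fcgr3 stands at 3.01 CPM in the same astrocytes.

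Oligodendrocyte precursors also held Fcgr2b, from few cells. Their Fcgr2b level was 59.7 CPM in APOE4 LPS (26 UMIs) and 23.1 CPM in APOE3 LPS (21 UMIs), and the 40 APOE4 LPS precursors without microglial UMIs were at 52.0 CPM (23.8 to 98.8, 9 UMIs). Choroid plexus epithelial cells, ependymal cells and neurons of APOE4 LPS held 47.3, 52.7 and 37.4 CPM of Fcgr2b, near the astrocyte level. Whether this RNA came from the cells themselves was not tested there or in the precursors. In these classes, unlike in astrocytes, Fcgr3 was higher than Fcgr2b (89.7, 110 and 65.9 CPM), the activating to inhibitory ratio was 3.12, 3.44 and 3.38, and there were 1.24, 1.12 and 1.13 Fcgr2b UMIs per 100 microglial UMIs, close to the 0.956 of microglia.

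Endothelial cells had large LPS ratios for all 6 genes, and the 10 microglial genes were higher there too. Endothelial Fcgr3 was at 3.30 and 33.1 CPM in APOE3 (NaCl, LPS) and at 2.05 and 48.4 CPM in APOE4, 10.0-fold (5.99 to 18.1) and 23.6-fold (9.95 to 73.5) higher with LPS. Fcer1g was 8.71-fold (6.60 to 11.7) and 18.2-fold (12.7 to 27.1) higher. Fcgr2b, known in the liver and placenta as an endothelial receptor, was 3.53-fold (1.75 to 8.03) higher in APOE3 and 24.9-fold (8.34 to 123) in APOE4, the latter from 3 NaCl UMIs. Pirb was not detected in endothelial cells of either NaCl library and was at least 3.63-fold and at least 9.16-fold higher with LPS, taking 3 UMIs per library as the limit for a count of 0. All 6 members were at least 2-fold higher with LPS in APOE3 (beside 11.6% of genes) and in APOE4 (beside 18.4%), and between the LPS libraries 5 of 6 were past 2-fold in favour of APOE4 (beside 9.01%). Only Fcgr3 and Fcer1g in APOE3, and Fcer1g alone in APOE4, had at least 10 NaCl UMIs. The other members were measured through the LPS libraries alone, which favours their being counted as higher with LPS. The 10 microglial genes summed to 229, 1247, 228 and 1993 CPM in the same cells with all 10 detected. Among endothelial cells without any of their UMIs (302 in APOE3 LPS, 190 in APOE4 LPS), Fcgr1 had 1 and 0 UMIs, Fcgr4 0 and 1, Pirb 1 and 0, and Fcgr3 2 and 5. Fcgr2b had 1 UMI there in APOE3 LPS and 16 UMIs in APOE4 LPS, 18.3 CPM (10.5 to 29.8) from 7 cells. Fcer1g had 25 and 24 UMIs there, 15.4 CPM (9.995 to 22.8) and 27.5 CPM (17.6 to 40.9), against 4.65 and 7.04 CPM in such cells of APOE3 and APOE4 NaCl. Different clusters held the endothelial cells of the NaCl and of the LPS libraries. The source of the receptor RNA in endothelial cells was not tested.

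Relatives and partners of the 6 genes were taken from lists chosen with earlier results of these data known, and genes without at least 10 UMIs in 1 library were not measured. Of the PIR and LILR relatives in microglia, 4 of 5 measured were at least 2-fold higher with LPS in APOE3 and 3 of 4 in APOE4. Lilrb4a, an inhibitory receptor, was 8.30-fold (6.97 to 9.95) and 15.8-fold (12.6 to 19.9) higher, Lilr4b 2.34-fold (1.62 to 3.46) and 8.86-fold (5.37 to 15.5) higher, and Pira2, an activating counterpart of Pirb, 3.08-fold (2.07 to 4.76) higher in APOE3. Between the NaCl libraries, Lilra5 differed in the opposite direction to Pirb: it was at 14.8 CPM in APOE4 and 4.80 CPM in APOE3, 3.08-fold (2.34 to 4.10) higher, from 206 and 71 UMIs. Pira2 had 12 and 28 UMIs. Lilra5 lies on chromosome 7 as well, 15.5 Mb from Apoe.

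Other paired receptors of myeloid cells split in both directions in microglia, 9 higher and 4 lower of 21 measured in APOE3, and 7 higher and 6 lower of 17 in APOE4. Of all genes measured, 5.96% were higher and 9.52% lower in APOE3, and 7.82% higher and 9.57% lower in APOE4, which also applies to the other lists. Cd300lf was 40.7-fold (31.1 to 54.4) and 39.6-fold (28.6 to 56.6) higher. Pilrb2 was 26.7-fold (14.0 to 58.8) and 34.5-fold (13.1 to 129) higher, and its neighbour in the family Pilrb1 had 536 against 5 and 117 against 1 UMIs. Trem1, an activating receptor that amplifies inflammation, had no UMI in NaCl microglia and was at least 37.2-fold and at least 23.9-fold higher. In the other direction, Trem2, the lipid-sensing microglial receptor, was at 0.480 and 0.376 times and Cd200r1, which restrains microglia, at 0.472 and 0.464 times its NaCl level. Among genes listed as partners of the gamma chain, 4 of 4 measured were higher in each genotype. Most of their UMIs came from Mcemp1, with 322 against 2 UMIs in APOE3 and 303 against 12 in APOE4, while Clec4d and Clec4n had at most 26 UMIs in a library. Mcemp1 is not established here as a receptor that uses the gamma chain, so the list says little about such receptors.

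Few genes of the signalling machinery passed 2-fold. Of 17 ITAM adaptors and kinases, Fgr alone was at least 2-fold higher with LPS (6.81-fold, 5.64 to 8.29, in APOE3 and 5.41-fold, 4.31 to 6.85, in APOE4), and Blnk was lower, at 0.448 and 0.402 times. In APOE4 Cd247 was also lower, from 1 against 13 UMIs. Tyrobp, the partner chain of Trem2, was at 0.994 and 0.785 times and Syk, the kinase that binds ITAMs, at 1.02 and 1.03 times. Of 8 ITIM phosphatases and brakes none passed 2-fold in APOE3, and 1 (Dok2, 25 against 11 UMIs) did in APOE4. Of 5 other Fc receptors and Fc-binding proteins none was higher and 1, Fcrl1, was lower in each genotype (0.371 and 0.258 times). Transcripts of the IgG heavy chains were almost absent from microglia: Ighg2c and Ighg3 had no UMI in NaCl microglia of either genotype, and no IgG heavy chain gene reached 10 UMIs in any library there. These counts do not measure IgG protein, the ligand of the Fc gamma receptors.

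None of the 7 listed Pirb ligands passed 2-fold in microglia. In astrocytes H2-D1, a class I heavy chain, was at 26.3, 66.1, 23.9 and 223 CPM, 2.51-fold (2.23 to 2.83) higher with LPS in APOE3 and 9.35-fold (8.34 to 10.5) in APOE4. APOE4 LPS was 3.38-fold (3.12 to 3.66) above APOE3 LPS for this gene. B2m, the light chain, was 1.54-fold and 2.88-fold higher in APOE3 and APOE4, and H2-K1 1.42-fold and 2.61-fold. In border-associated macrophages Pira2 was 8.25-fold (4.66 to 16.1) and 9.57-fold (4.78 to 22.4) higher with LPS, next to the Pirb ratios given above. Clec4d, a gamma-chain lectin, was 15.4-fold (6.54 to 48.0) and 13.1-fold (5.93 to 36.0) higher there, and Fcrls was at 0.263 and 0.231 times its NaCl level.

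Across 61 class-by-library sums, the 6 genes fell beside different companions among 15162 genes with at least 500 UMIs. Fcgr1 and Fcgr3 were most like the complement genes C1qa (Pearson r of log2 CPM 0.98 for both) and C1qc. Fcer1g was most like Tyrobp (0.99), Ctss and Aif1. Fcgr4 was most like Igsf6 (0.96), Ms4a6c and Cd300lf, Pirb most like Osm (0.96), Lrrc25 and Tlr13, and Fcgr2b had the lowest best value, with Fcer1g (0.94), Ms4a6b and Ms4a6d. Between members the value ran from 0.88 (Fcgr2b with Fcgr4) to 0.98 (Fcgr1 with Fcgr3). These points share libraries and depth and mostly separate myeloid from other classes, so the values are a description.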

How the data were processed

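Gene-by-cell UMI count matrices, 1 for each of the 4 libraries, were deposited by the authors. The counts come from Cell Ranger 7.0.1, per the file headers (7.0 and build mm10 per the submitters' processing notes), and were not normalized. Depths were 73288965 to 114378032 UMIs per library. All 32285 genes were read. Cells needed 500 genes and 1000 UMIs, and those above 20% mitochondrial UMIs were dropped. Doublets marked by Scrublet were removed from 3 libraries; in APOE4 LPS it marked none of 18182 cells and had not worked. The 56976 cells were clustered with scanpy 1.11.5 and Leiden (igraph 0.11.9, resolution 1) on 2000 variable genes, without the 6 receptor genes and the genes of the lists, into 32 clusters. Each cluster was named from fixed markers of 19 cell types, and 7 stayed unnamed. Names rebuilt in this way can differ from those of the study.

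UMIs were summed per class and library and divided by the class total (CPM). Ratios carry exact conditional binomial intervals, levels exact Poisson intervals and shares of cells Clopper-Pearson intervals, all at 95% and for counting error only. Log2 values are log2(CPM + 1). A gene was measured with at least 10 UMIs in 1 of the 2 libraries and counted at 2-fold, on the ratio of CPM values with nothing added; differences of LPS ratios between genotypes were counted on the log2 values. A count of 0 was set to a limit of 3 counts per library. On simulated microglial counts with 200 planted changes, 100 of 100 increases and 100 of 100 decreases were found, 192 of 200 intervals held the true value, and 373 of 15450 unchanged genes also passed 2-fold. The planted changes were well past the 2-fold mark, left out genes with few UMIs and carried counting noise only. Finding them was therefore nearly certain and says little about smaller differences or genes with low counts. The 10 microglial genes were used as a sum and to choose cells without their UMIs, and not every one of them is reported here by name.

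All 6 members are named. From each list at most the 3 genes with the largest difference in each direction, at least 2-fold and with at least 50 UMIs, are named, as are the 3 genes most like each member over all class sums. Tyrobp, Syk, Cd247, Dok2, Clec4d and Clec4n in microglia, the IgG heavy chains and Pira2 in NaCl microglia fall outside that rule and were chosen after their values were seen. The members and lists were chosen with earlier results of these data known. Alternative filters, clusterings, scalings, offsets and cell subsets were tried, and comparisons that share a library are not independent of each other.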

Additional observations from a re-analysis of the deposited data

Results flagged for a closer look

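Barcodes with fewer than 1000 UMIs entered none of the comparisons above, and in APOE4 LPS they held all 6 receptor transcripts above the level of such barcodes in APOE4 NaCl. In APOE4 LPS these were 11013 barcodes, 37.5% of the library. Fcgr1 stood at 107 CPM in them, against 30.4 CPM in the APOE4 NaCl barcodes of that size. Fcgr2b stood at 140.5 CPM against 45.6 CPM, and Fcgr3 at 274 CPM against 69.2 CPM. Fcgr4 stood at 90.2 CPM against 3.38 CPM, Fcer1g at 1353 CPM against 317 CPM, and Pirb at 42.0 CPM against 1.69 CPM. In APOE3 LPS 728 such barcodes held 34.8 CPM of Fcgr4 against 1.72 CPM in APOE3 NaCl, and 453 CPM of Fcer1g against 232 CPM. With 1 library per group these differences were not tested.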

How the results depend on the processing

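With 1 library per group, no replicate could be left out. No paired analysis was possible because each group has 1 library. Over the 39 ratios of a member past 2-fold, 561 alternative values were computed: 399 stayed within the counting interval, 155 moved beyond it and 7 turned direction. The 1.5-fold mark and the minima of 50 UMIs and of 1 UMI change only which genes are counted. They leave every ratio as it was, so part of the 399 stayed by construction. A 2-fold mark on CPM + 1, subsets of microglial clusters, microglia with clusters 26 or 24 joined, astrocytes without cluster 17, and the removal of cells with any microglial UMI were chosen after seeing the data. The cause of each change below was not tested. Low counts limit the non-myeloid classes.

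Counts of members past 2-fold, out of 6, are given as alternatives to those above, with the share of all genes past the same mark in brackets. In microglia the APOE3 LPS count of 1 was 4 with median-ratio scaling (7.61%), 5 at 1.5-fold (11.3%), 4 in clusters 3 and 7 (9.06%) and 3 in clusters 4 and 13 (5.57%). The APOE4 LPS count of 2 was 5 at 1.5-fold (15%). The count of 2 lower in APOE4 NaCl was 0 with log2(CPM + 10) (0.0419%) and in clusters 4 and 13 (8.46%). The count of 0 lower in APOE4 LPS was 1 at 1.5-fold (6.21%), at Leiden resolution 2 (3.21%) and in clusters 3 and 7 (2.03%). The count of members whose LPS ratio differed 2-fold between genotypes was 0, and it was 1 with doublets kept, at 10% mitochondrial UMIs, with the members used in clustering or with clusters 24 and 26 joined, and 2 with cluster 26 joined.

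In astrocytes the counts of 5 (APOE3 LPS), 6 (APOE4 LPS) and 2 (between LPS libraries) were 1, 2 and 1 with log2(CPM + 10) (0.44%, 1.15% and 0.493%), 3, 3 and 1 from 50 UMIs (1.92%, 3.39% and 1.93%), 3, 2 and 1 without cells with any microglial UMI (2.79%, 4.9% and 3.96%), and 4, 5 and 1 with 1 added to each CPM value (1.55%, 3.69% and 1.97%). The last count was also 1 with doublets kept (3.94%), from 2000 UMIs (3.88%), from 200 genes and 500 UMIs (3.36%), without cells with 2 or more microglial genes (3.85%), and without cluster 17 (1.99%). The count of genotype differences was 2 in place of 1 with the mean of each cell's CPM. In endothelial cells the counts of 6, 6, 5 and, for genotype differences, 5 were 2, 2, 1 and 1 without cells with 2 or more microglial genes (9.04%, 14.4% and 6.89% for the first 3), and 1, 2, 1 and 2 without cells with any (8.0%, 11.7% and 5.49%). With log2(CPM + 10) the APOE3 LPS count, that between LPS libraries and that of genotype differences were 2, 2 and 2 (3.3% and 1.68% for the first 2), with doublets kept the last 2 counts were 3 and 3 (2.74% for the former), and with the mean of each cell's CPM 2 and 3 (9.9%). No share of all genes was computed for genotype differences. In border-associated macrophages the APOE3 count of 2 was 1 with log2(CPM + 10) (4.89%).

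Directions turned in endothelial cells without cells with 2 or more microglial genes for Fcgr2b with LPS in APOE3 (-0.49), Fcgr1 (-0.87) and Fcgr4 (-0.24) between the LPS libraries, and the genotype difference of Fcgr3 (-0.31, and -0.040 with the mean of each cell's CPM). Without cells with any microglial UMI they turned for Fcgr2b in APOE3 (-0.57), and for Fcgr1 (-0.69), Pirb (-0.69) and the genotype difference of Pirb (-0.69). Pirb turned in astrocytes between the LPS libraries from 200 genes and 500 UMIs (-0.85).

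The microglial activating UMIs per Fcgr2b UMI, in APOE3 (NaCl, LPS) and then APOE4, were 0.986, 1.10, 0.956 and 0.841 for Fcgr1 alone, 2.92, 3.45, 2.99 and 2.43 for Fcgr3 alone, and 0.139, 0.815, 0.0604 and 0.491 for Fcgr4 alone. In clusters 3 and 7 the LPS values were 3.98 and 3.14, and in clusters 4 and 13 the NaCl values were 3.14 and 3.52. The APOE4 LPS value was 3.576 with doublets kept, 3.598 at 10% mitochondrial UMIs, 3.595 with members in clustering, 3.56 and 3.579 with cluster 26 or clusters 24 and 26 joined, and 3.585 from 200 genes and 500 UMIs. Astrocyte Fcgr2b UMIs per 100 microglial UMIs in APOE4 LPS were 12.4 with doublets kept, 5.15 without cluster 17, 9.12 from 200 genes and 500 UMIs and 38.7 without cells with 2 or more microglial genes, with 1.155 and 7.43 in APOE3 LPS under the last pair of settings. Leaving out cells with 2 or more microglial genes lowers the microglial UMIs that the Fcgr2b UMIs are divided by, which favours a higher value. From 200 genes and 500 UMIs the doublet caller marked 28.9% of APOE4 LPS cells.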
